A study of Rattus norvegicus with 12 samples.

Results

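The choroid plexus epithelium separates blood from cerebrospinal fluid (CSF), and besides secreting this fluid it carries metabolites and drugs out of it. Organic anions are taken up from the CSF by carriers of the SLC22 family, can be joined to sulfate or glutathione inside the cell, and leave towards the blood through ATP-driven pumps of the ABC family. Epoxide hydrolase opens reactive epoxides before such conjugation. Together these steps are known as the enzymatic and efflux arm of the blood-CSF barrier.

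A set of 8 genes from this route was described, and 7 of them were found among the 32883 Ensembl genes of the deposited tables. They are the organic anion uptake carrier SLC22A8, the efflux pumps ABCC1 and ABCC4, the phenol sulfotransferase SULT1A1, the glutathione transferases GSTP1 and GSTM1, and the microsomal epoxide hydrolase EPHX1. The other one, ABCG2, is paired with no identifier in the supplementary tables used here, and no value is given for it. SULT1A1, ABCC1 and ABCC4, 3 of the 7, were paired with their identifier only through tables of genes that the study itself called differentially expressed on these libraries. That they were called below is therefore not independent evidence. The other 4 stand in the part of the study's transcript table that was available here, called the table of abundant transcripts below. SLC22A8 and EPHX1 also stand among the genes that the study called. All members were chosen with earlier results of these data known, so the calls of these genes are not independent evidence either.

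RNA came from whole choroid plexus (lateral and the fourth ventricle) of 12 male Sprague-Dawley rats aged 9 weeks, with 1 library per rat. Tissue was taken under xylazine and ketamine from 6 rats at zeitgeber time (ZT) 8 h, the light phase, and from 6 rats at ZT 20 h, the dark phase, the latter in darkness except for a red lamp. The comparison asks whether expression differs between these phases, and with 1 time point per phase the hour of the day and the lighting cannot be told apart. Expression is given as TPM, a share of all transcripts in a library that takes their length into account, so that levels of different genes can be compared. Differences are log2 fold changes from limma, dark phase minus light phase, on log2(scaled TPM + 0.5), where the added 0.5 makes changes of weakly expressed genes appear smaller. The false discovery rate (FDR) was adjusted over the 12513 genes whose mean reached 1 TPM, all 7 members among them.

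No depth in reads can be given from TPM, and errors are therefore those between rats. All 8 markers of the choroid plexus epithelium had an identifier, and transthyretin (TTR) alone took between 28.7 and 31.0% of all TPM in the dark phase. In the light phase 5 libraries lay between 30.0 and 30.4%, while light-phase replicate 2 held 25.4%. Of the 8 epithelial markers 4 were called, in both directions, with log2 fold changes of 0.29 for KL, 0.24 for OTX2, 0.17 for CLIC6 and -0.38 for AQP1. Markers of other cell types were only partly paired with identifiers, and the summed levels of the phases overlapped for stroma (2 of 6 markers), endothelium and mural cells (4 of 10), macrophages (1 of 8), leptomeninges (1 of 7), neurons and glia (1 of 8) and blood (2 of 7). Single markers within these sums were called nonetheless, namely FLT1 (0.35, FDR = 0.000175) and TAGLN (-0.73, FDR = 0.0270) of endothelium and mural cells and PTPRC (-0.36, FDR = 0.0497) of blood. The 3 of 6 markers of motile cilia that had an identifier summed to 436 to 493 TPM in the light phase and to 320 to 403 TPM in the dark phase, with no overlap. Of these, CFAP126 (-0.55) and DYNLRB2 (-0.37) fell, whereas RSPH1 was at 76.8 and 76.6 TPM (-0.02, FDR = 0.858). None of these paired markers was listed at 0 in any library. With the summed epithelial markers in the model EPHX1 was no longer called (FDR = 0.0544), and the other 4 called members still were. The estimate of EPHX1 was -0.18 with and without this sum. TTR made up most of the sum, with means of 294113 (light) and 303059 TPM (dark) beside summed medians of 312680 and 319369 TPM. The part of the other marker shifts in the results was not tested, and in whole tissue fewer cells of a type and less RNA per cell cannot be told apart.

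Of the 7 members, 5 were called at an FDR below 0.05, against 17.6% of all tested genes. SULT1A1, ABCC1 and ABCC4 were paired only through tables of called genes, so counts that include them cannot be read against such shares. SLC22A8, SULT1A1 and ABCC1 were up-regulated in the dark phase (3 members, against 9.52% of tested genes), and EPHX1 and ABCC4 in the light phase (2 members, against 8.1%), while GSTP1 and GSTM1 did not pass the test. Among the 4 members from the table of abundant transcripts, SLC22A8 and EPHX1 were called, where 22.9% of the 1997 genes of that table were, 9.06% with a positive and 13.9% with a negative fold change. The phases did not overlap in SLC22A8 and SULT1A1, as in 8.73% of all tested genes, and in both the dark-phase values were higher, as in 5.03%. Within the table of abundant transcripts, to which SLC22A8 belongs, these shares were 11.9 and 4.91%. Overlap of all genes was judged on scaled TPM, and for the members the deposited TPM gave the same answer. The median log2 fold change of the members was -0.04, and that of all tested genes -0.01, with members on both sides of it.

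**Figure D1:**
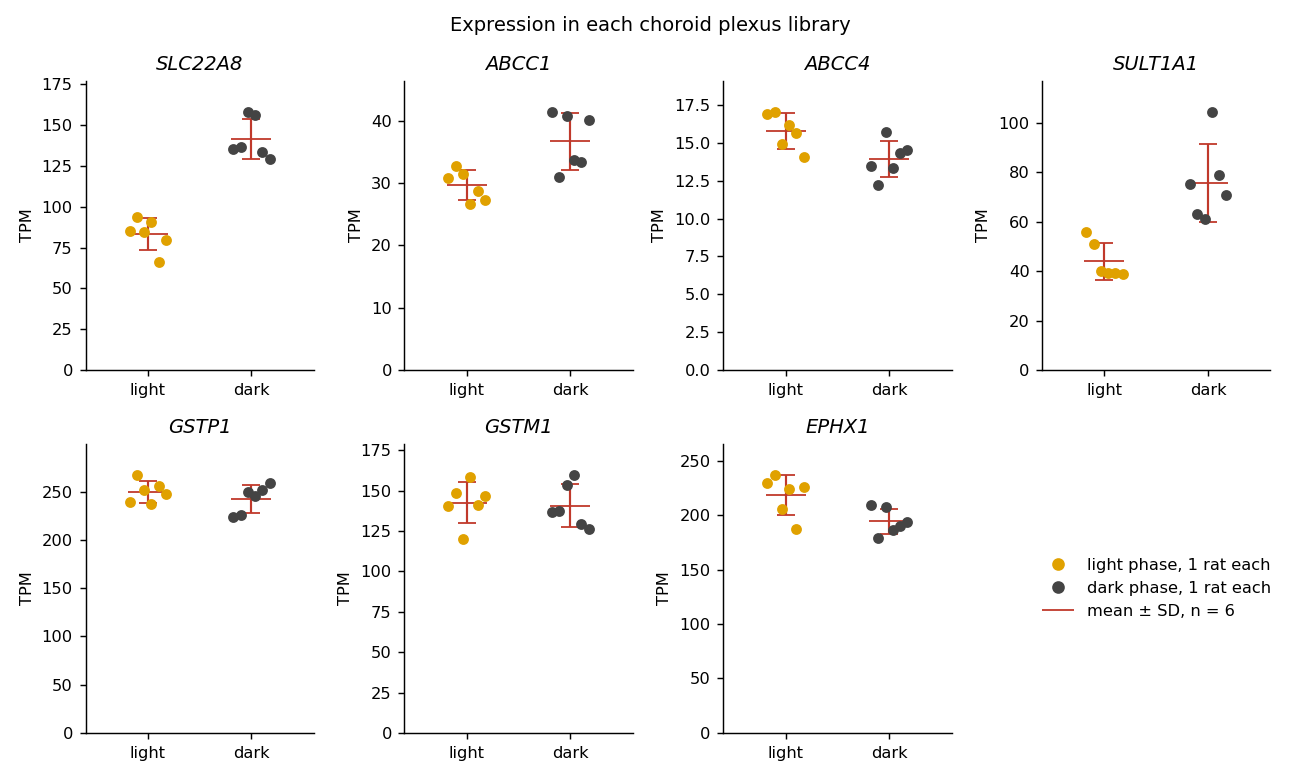
TPM of each member (vertical axes, from 0) in the 6 light-phase (yellow) and 6 dark-phase (grey) libraries, with mean and SD in red. In SLC22A8 and SULT1A1 every dark-phase point lies above every light-phase point, and in the other 5 genes the phases overlap.

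SLC22A8 (ENSRNOG00000018086) encodes organic anion transporter 3, which takes up organic anions, among them drugs such as penicillins, at the CSF-facing membrane. Its lowest, median and highest TPM were 66.4, 84.7 and 93.7 (light) and 130, 136 and 158 (dark). Light-phase replicate 5 was the lowest library, and dark-phase replicates 3 and 4 stood highest at 158 and 156 TPM. The means of 83.3 ± 9.61 and 141 ± 12.3 TPM (SD, n = 6 each) correspond to 69.9% more transcript in the dark phase. The log2 fold change was 0.75 with a standard error of 0.08 (FDR = 6.58e-05). An exact permutation test over the libraries gave p = 0.00216, two-sided, which is the smallest value that 6 against 6 can give. Of the 2204 genes called, 142 had a change at least as large, SLC22A8 included. With each of 26 alternative settings SLC22A8 stayed called, with a log2 fold change between 0.69 and 0.79. In the RefSeq annotation its span overlaps that of another carrier gene, Slc22a25, and reads from the overlap could not be told apart here. The same applies to ABCC1, ABCC4 and EPHX1, whose spans overlap non-coding genes or pseudogenes.

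SULT1A1 (ENSRNOG00000019342) transfers sulfate to phenols, including phenolic drugs, catechols and estrogen-like compounds. In the light phase it ranged from 38.8 TPM over a median of 39.7 to 55.7, and in the dark phase from 60.9 over 73.0 to 104.3 TPM. Light-phase replicates 1 and 2, at 55.7 and 50.8 TPM, stood above the other four light-phase libraries, and dark-phase replicate 4 held the highest value. The dark-phase mean was 71.7% above that of the light phase, with a log2 fold change of 0.75 and a standard error of 0.12 (FDR = 0.00142, exact permutation p = 0.00216). Its 95% interval, 39.5 to 102% more transcript, was wider than the 48.8 to 89.8% of SLC22A8. The spread between rats within a phase, an SD of 0.24 on the log2 scale, exceeded that of 78.5% of tested genes, where SLC22A8 had 0.15. Without dark-phase replicate 4 the log2 fold change of SULT1A1 was 0.65 (FDR = 0.00101). With the FPKM/TPM ratio of the library, described below, added to the model, the estimate was 0.76 and the call was lost (FDR = 0.0756).

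SLC22A8 and SULT1A1 had the largest differences of the set, and the sequences upstream of their annotated starts are printed here because the transcripts rose by a similar amount. Each run is the 250 bases before the RefSeq start, 5′ to 3′ on the strand of the gene, at chr1:214927034-214927283 (plus strand) for SLC22A8 and chr1:190706113-190706362 (minus strand) for SULT1A1 of build GRCr8, which is not the build of the expression tables. GSTP1, at chr1:210769706-210769955 (minus strand), is added as a member that did not pass the test.
SLC22A8: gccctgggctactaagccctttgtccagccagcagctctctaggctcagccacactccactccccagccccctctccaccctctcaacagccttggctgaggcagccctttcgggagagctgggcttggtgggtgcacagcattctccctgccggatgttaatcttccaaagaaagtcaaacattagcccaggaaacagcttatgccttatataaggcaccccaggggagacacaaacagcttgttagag
SULT1A1: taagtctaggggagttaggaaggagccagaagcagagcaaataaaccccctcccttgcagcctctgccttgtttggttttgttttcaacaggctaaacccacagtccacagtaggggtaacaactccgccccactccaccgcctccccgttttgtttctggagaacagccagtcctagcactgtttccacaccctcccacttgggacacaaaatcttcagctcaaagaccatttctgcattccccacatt
GSTP1: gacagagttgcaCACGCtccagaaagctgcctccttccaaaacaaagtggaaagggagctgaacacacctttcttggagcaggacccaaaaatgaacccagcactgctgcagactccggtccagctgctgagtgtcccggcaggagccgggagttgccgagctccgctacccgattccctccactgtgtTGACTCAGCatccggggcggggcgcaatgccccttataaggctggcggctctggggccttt
Capitals mark matches to the motifs searched on both strands, which were the E-box CACGTG, the D-box TTATGTAA or TTACGTAA, the core of the antioxidant response element TGACNNNGC, the core of the xenobiotic response element GCGTG, and the nuclear receptor core AGGTCA. The windows of SLC22A8 and SULT1A1 held 0 matches to any of them. GSTP1 held the antioxidant core, starting 61 bases before the start, and the xenobiotic core. Of all 33469 RefSeq promoter windows of the same length, 10.1% held the antioxidant core, 25.9% the xenobiotic core, 5.59% the E-box, 0.932% the D-box and 14.1% the nuclear receptor core. Among the remaining members, ABCC1 and ABCC4 matched the xenobiotic core, GSTM1 matched the nuclear receptor core, and of the 2 windows of EPHX1 the downstream one matched the antioxidant and the nuclear receptor core. A match describes letters in a window and no binding.

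ABCC1 (ENSRNOG00000022305), multidrug resistance-associated protein 1, exports glutathione and glucuronide conjugates. It had 26.7 TPM at the lowest, 29.8 at the median and 32.8 at the highest (light), and 30.9, 36.9 and 41.4 TPM correspondingly (dark). Dark-phase replicates 1, 3 and 6 lay between 40.2 and 41.4 TPM, while dark-phase replicates 2, 4 and 5 lay between 30.9 and 33.7 and so close to the light-phase libraries. The mean rose by 23.9%, from 29.6 ± 2.44 to 36.7 ± 4.57 TPM (SD, n = 6 each). Limma gave a log2 fold change of 0.28 with a standard error of 0.07 (FDR = 0.0147), and the exact permutation test p = 0.00649. The call held with each of the 12 libraries left out.

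Values of ABCC1 were set beside a property of the libraries. RSEM gives both TPM and FPKM, the fragment count scaled by length and library, and the ratio of their totals is the inverse of the mean effective transcript length in a library. This FPKM/TPM ratio was 0.953 to 0.987 (light) and 0.934 to 0.960 (dark). In dark-phase replicates 1, 3 and 6 it was 0.936, 0.940 and 0.934, the 3 lowest values of all libraries. Within the light phase ABCC1 (log2) correlated with the ratio at Pearson's r = -0.76 (exact permutation p = 0.0889) and Spearman's rho = -0.66 (p = 0.175, n = 6), and within the dark phase at r = -0.80 (exact permutation p = 0.0861) and rho = -0.66 (p = 0.175, n = 6). Leaving out the 2 libraries with the most extreme ratios gave r = -0.58 and -0.98, over 4 libraries each. Over all members and phases, the same step gave r from -0.98 (EPHX1, dark phase) to 0.89 (GSTP1, light phase). In the same family of 14 relations, 7 members in each phase, none passed adjustment (lowest Benjamini-Hochberg adjusted p = 0.508 for r and 0.408 for rho, exact permutation). With the ratio as a covariate the log2 fold change of ABCC1 was 0.09 (FDR = 0.651), that of SLC22A8 was 0.78 (FDR = 0.00959), and 345 genes were called in all. SLC22A8 correlated with the ratio at r = -0.18 (light) and 0.52 (dark) (exact permutation p = 0.768 and 0.290, n = 6 each). Spearman's rho for SLC22A8 was -0.09 (light) and 0.71 (dark) (exact permutation p = 0.919 and 0.136, n = 6 each). Without the 2 libraries of most extreme ratio its r was -0.83 (light) and -0.28 (dark), over 4 libraries each.

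**Figure D2:**
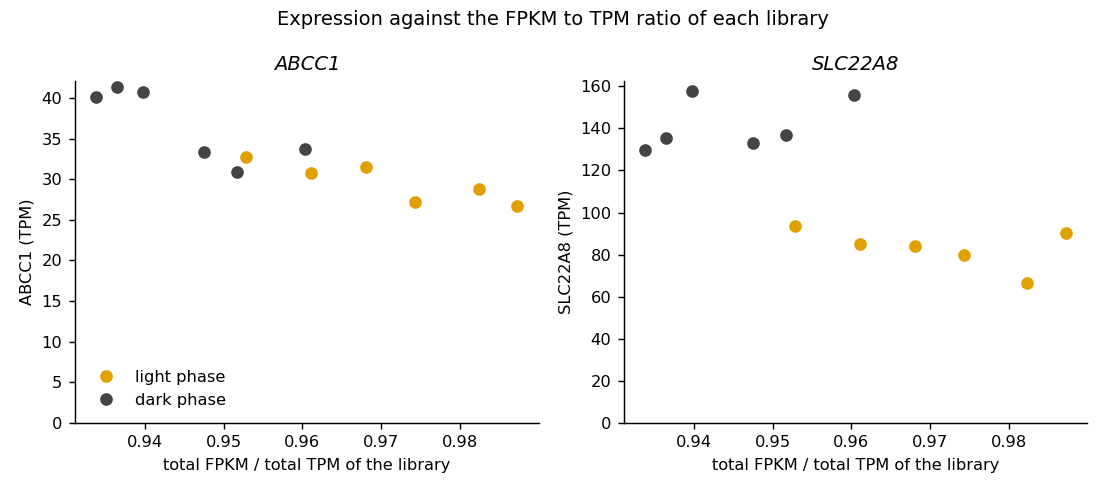
TPM of ABCC1 (left) and SLC22A8 (right) against the FPKM/TPM ratio of totals for each library, light phase in yellow and dark phase in grey. ABCC1 is highest in the 3 libraries with the lowest ratios, and SLC22A8 lies between 130 and 158 TPM in the dark phase.

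ABCC4 (ENSRNOG00000010064), multidrug resistance-associated protein 4, exports organic anions, cyclic nucleotides and sulfated steroids. It was the least abundant member, with a lowest, median and highest value of 14.0, 15.9 and 17.0 TPM (light) and 12.2, 13.9 and 15.7 TPM (dark). The phases overlapped, as 3 light-phase libraries lay above every dark-phase library and 3 dark-phase libraries below every light-phase library. Expression was 13.4% higher in the light phase, with a log2 fold change of -0.19 and a standard error of 0.06 (FDR = 0.0398, exact permutation p = 0.0108). The call was lost when any 1 of 9 libraries was left out, namely light-phase replicates 1, 2, 4 and 5 and dark-phase replicates 1, 2, 4, 5 and 6 (FDR between 0.0566 and 0.0849), and the direction was the same in all 26 alternatives.

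EPHX1 (ENSRNOG00000003515) hydrolyses epoxides that arise from oxidised drugs and aromatic compounds. Its lowest, median and highest TPM were 187, 225 and 237 (light), against 179, 192 and 209 (dark). In the light phase 4 libraries lay above all dark-phase libraries, and light-phase replicates 3 and 5, at 205 and 187 TPM, fell among the dark-phase values. The light-phase mean was 12.4% higher, at 218 ± 18.5 against 194 ± 11.9 TPM (SD, n = 6 each). Limma estimated -0.18 on the log2 scale with a standard error of 0.06 (FDR = 0.0469), and the exact permutation p was 0.0216. This call was lost without any 1 of light-phase replicates 1, 2, 4 and 6 or dark-phase replicates 2, 4, 5 and 6 (FDR between 0.0748 and 0.0983). With the replicate number as a block it had an FDR of 0.0813, and ABCC4 had 0.114.

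GSTP1 (ENSRNOG00000018237) and GSTM1 (ENSRNOG00000029726) encode transferases of the pi and mu class, which join electrophiles to glutathione. GSTP1 was the most abundant member, ranked 404 among the 12513 tested genes, with 237, 250 and 267 TPM at the lowest, median and highest (light) and 223, 248 and 259 TPM (dark). It also varied least between rats, with a coefficient of variation of 4.51% (light) and 6.01% (dark). Its log2 fold change was -0.06 (FDR = 0.358), and the 95% interval of the change in the dark phase ran from -9.99 to 2.16%. GSTM1 lay between 120 and 158 TPM (light, median 144) and between 127 and 160 TPM (dark, median 137), so that nearly the whole range was shared. For GSTM1 the log2 fold change was -0.04 (FDR = 0.806), with a 95% interval from -13.6 to 10.1%, so that changes of a size inside these bounds remain possible. RefSeq lists 8 further coding genes of the mu class and 1 of the pi class in the rat, and how RSEM divided reads among such copies is not known here.

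**Figure D3:**
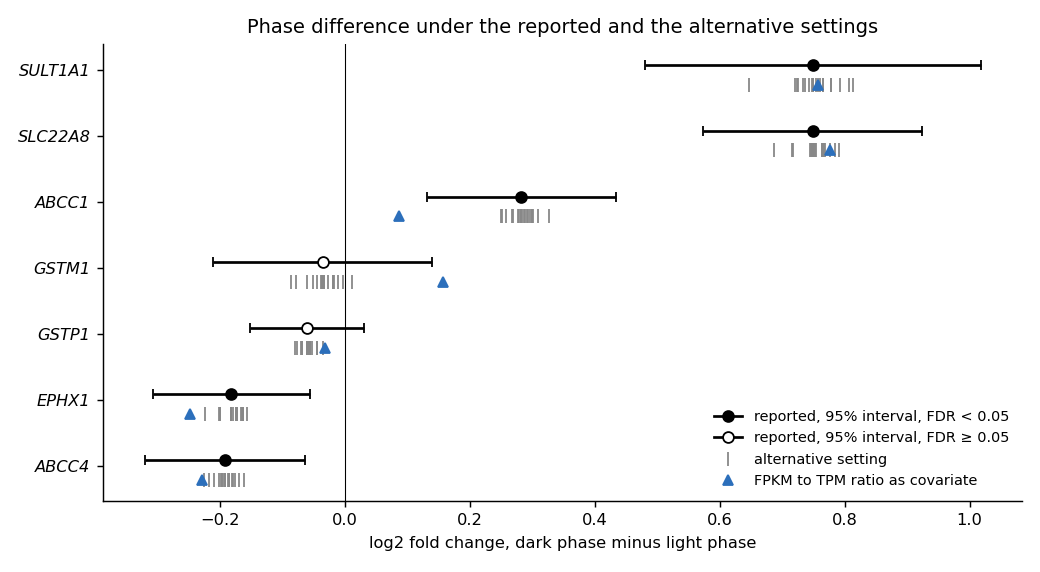
Log2 fold change of each member, dark phase minus light phase, with the 95% interval of the limma fit (filled circles, FDR below 0.05, open circles, not called). Grey ticks are the alternative settings and blue triangles the model with the FPKM/TPM ratio, under which ABCC1 lies at 0.09 and GSTM1 at 0.16.

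In order of level, the means over all libraries were 246 TPM for GSTP1, 206 for EPHX1, 142 for GSTM1, 112 for SLC22A8, 59.8 for SULT1A1, 33.2 for ABCC1 and 14.8 for ABCC4. The efflux pumps were thus the lowest of the set and the conjugating and hydrolysing enzymes mostly the highest. In the dark phase SLC22A8 (130 to 158 TPM) and GSTM1 (127 to 160 TPM) overlapped, whereas in the light phase every library of GSTM1 lay above every library of SLC22A8.

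Ratios of 2 transcripts within a library do not depend on how the library was scaled. The ratio of SLC22A8, the uptake carrier, to the efflux pump ABCC4 was 4.25 to 5.68 (light, median 5.55) and 8.94 to 11.7 (dark, median 10.1). For the 2 efflux pumps, ABCC1 exceeded ABCC4 by a factor of 1.65 to 2.11 (light) and 2.33 to 3.08 (dark). The phases were separate in both ratios, although each pump alone overlapped between the phases. SULT1A1 relative to EPHX1 was 0.172 to 0.242 (light) and 0.294 to 0.559 (dark). GSTP1 relative to GSTM1 ranged from 1.54 to 2.04 (dark), inside the light-phase range that reached 2.10. These pairs were chosen after the members' values were seen, and no test was made.

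**Figure D4:**
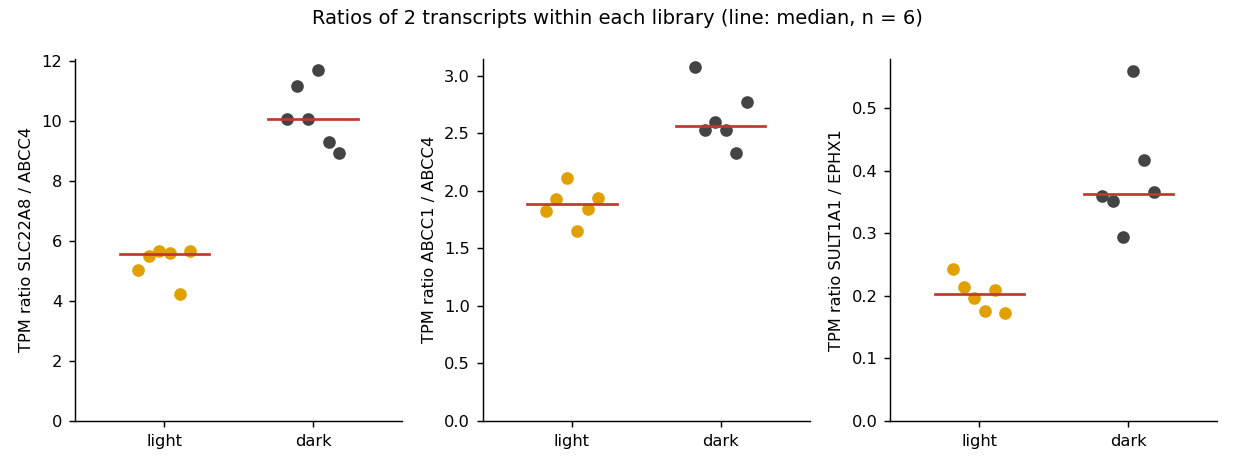
TPM of SLC22A8 over ABCC4, ABCC1 over ABCC4 and SULT1A1 over EPHX1 in each library (vertical axes, ratio without unit, from 0), with the median of each phase as a red line. In each panel all 6 dark-phase libraries lie above all 6 light-phase libraries.

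Within the phases, after removal of the phase means, the 21 pairs of members correlated between -0.26 and 0.64 over the 12 libraries, with a median of 0.17. The pair of highest correlation was EPHX1 and SLC22A8 (r = 0.64), which changed in opposite directions between the phases, and SULT1A1 and SLC22A8 had r = 0.26. All points of such a correlation share the scaling of their library, and it is given as a description. Among the 3626 other tested genes with a symbol, the transcripts most like SLC22A8 over the 12 libraries were SEL1L (r = 0.97) and TRPV4 (r = 0.96). SULT1A1 was most like HACD3 (r = 0.95) and CSNK1D (r = 0.91), and ABCC1 was most like TYK2 (r = 0.97) and BAZ2A (r = 0.94). For EPHX1 they were ABCB6 (r = 0.93) and CA12 (r = 0.88), for GSTM1 EDNRB (r = 0.90) and NME3 (r = 0.87), for ABCC4 SIDT2 (r = 0.84) and UCP2 (r = 0.83), and for GSTP1 TIMM9 (r = 0.78) and LZTR1 (r = 0.76). With the phase means removed, r over these 14 pairs lay between 0.56 (SULT1A1 and CSNK1D) and 0.93 (ABCC1 and TYK2), with 0.79 for SLC22A8 and SEL1L, 0.68 for ABCC4 and UCP2 and 0.62 for ABCC4 and SIDT2. Both genes named for a member are the highest of that search, and no test was made. Many of the genes searched had a symbol only through tables of called genes, as 1997 tested genes were in the table of abundant transcripts. The search thus favoured genes that differ between the phases.

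The wider route was described with 8 lists of 167 genes, of which 58 had an identifier and 55 were tested. Because many identifiers came from the tables of called genes, only the 32 genes found in the table of abundant transcripts are set beside a background. Of these 32, limma called 9, with 4 positive and 5 negative log2 fold changes. This is 28.1%, near the 22.9% of all tested genes of that table, and their median log2 fold change was -0.08. Members make up 4 of the 32, and regulators 3 (DBP, TEF and NFE2L1), all 3 of them called. Members and lists were chosen with earlier results of these data known, so these shares are a description and not independent evidence. The other 23 genes were named through tables of called genes, and 16 of them were called here, 8 in each direction.

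Among carriers for organic anions, cations and peptides, 9 were tested, of which 3 rose and 2 fell towards the dark phase, with a median of -0.11. That 5 of 9 were called stands beside 17.6% of all tested genes, but SLC15A4, SLC29A1 and SLCO1A4 came only through tables of called genes, and of the 5 genes from the table of abundant transcripts 2 were called. Besides SLC22A8, these were the thyroid hormone and organic anion carrier SLCO1C1 (0.45 on the log2 scale, FDR = 0.00734) and the lysosomal peptide and histidine carrier SLC15A4 (0.41, FDR = 0.00059) in the one direction. In the other direction SLC29A1, a nucleoside carrier, fell from 8.15 ± 1.92 to 5.71 ± 0.630 TPM (SD, n = 6 each; FDR = 0.0208). SLCO1A4, which the naming rule left out and which is named to complete the count, had -0.45 (FDR = 0.0233). Efflux pumps were represented by ABCC1 and ABCC4 alone, since ABCC6, at 0.678 ± 0.132 (light) and 0.392 ± 0.0995 TPM (dark; SD, n = 6 each), did not reach a mean of 1 TPM.

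Sulfation needs the donor PAPS and a supply of sulfate, and SLC35B2 carries PAPS into the Golgi. The list does not separate sulfation in the Golgi from that by SULT1A1. In this list 6 genes were tested, 2 were called in each direction, and the median was 0.04. Next to SULT1A1, sulfite oxidase SUOX rose from 8.82 ± 0.643 to 12.1 ± 0.646 TPM (SD, n = 6 each), or by 0.43 on the log2 scale (FDR = 0.000171), without overlap. SLC35B2 and the sulfate carrier SLC26A2 fell, SLC35B2 by a log2 fold change of -0.38 (FDR = 0.0014) and SLC26A2 by one of -0.34 (FDR = 0.038). All 4 of these genes were named through tables of called genes. The 2 from the table of abundant transcripts, named after their values were seen, were not called: BPNT1, which clears the product of sulfation, had -0.10 (FDR = 0.238) and the sodium-sulfate carrier SLC13A4 0.17 (FDR = 0.0505). SLC13A4 is also among the genes that the study called differentially expressed. Over the 26 alternatives 1 to 5 genes of this list were called.

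Of the 7 glutathione transferases tested, 0 rose and 2 fell towards the dark phase, and the median log2 fold change was -0.14. Of the 6 from the table of abundant transcripts 1 was called, GSTO1, against 22.9% of that table, and GSTM4 was paired only through a table of called genes. GSTO1, of the omega class, went from 82.5 ± 8.44 to 64.8 ± 3.98 TPM (SD, n = 6 each), which is -0.36 on the log2 scale (FDR = 0.00223). Its libraries were apart only after scaling, as the deposited TPM reached down to 70.4 (light) and up to 71.1 (dark). GSTM4 had -0.35 (FDR = 0.0112), and GSTA4, at -0.21, was not called (FDR = 0.241). In the list of glutathione synthesis and recycling, 4 genes were tested and 2 were called, both higher in the light phase. GLRX alone came from the table of abundant transcripts, and the other 3 from tables of called genes, so the count cannot be set against a background. Glutaredoxin GLRX, which removes glutathione from proteins, had a log2 fold change of -0.40 (FDR = 0.000178) and glutathione reductase GSR -0.16 (FDR = 0.0315), and both were apart on scaled TPM, GSR by so little that its deposited TPM overlapped. GCLM, a subunit of the enzyme that begins glutathione synthesis, had 0.15 (FDR = 0.121).

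Oxidation, reduction and hydrolysis was the longest list, with 18 genes tested, 3 up in the dark phase and EPHX1 alone up in the light phase, at a median of -0.05. Of the 12 from the table of abundant transcripts 2 were called, ALDH2 and EPHX1, against 22.9% of that table, while ALDH3A1 and CBR3 were paired only through a table of called genes. The 3 were the aldehyde dehydrogenases ALDH3A1 (log2 fold change 0.62, FDR = 0.00192) and ALDH2 (0.16, FDR = 0.0297) and the carbonyl reductase CBR3 (0.29, FDR = 0.0225). CYP39A1, an oxysterol hydroxylase, had 0.588 ± 0.113 (light) and 1.26 ± 0.257 TPM (dark; SD, n = 6 each) without overlap, and was too low on average to be tested. Among 5 tested genes of glucuronidation, methylation and acetylation 2 were called, both paired only through tables of called genes. UGDH, which makes the glucuronide donor, had 0.20 (FDR = 0.0206) and NAT8F5 had -0.51 (FDR = 0.0314).

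**Figure D5:**
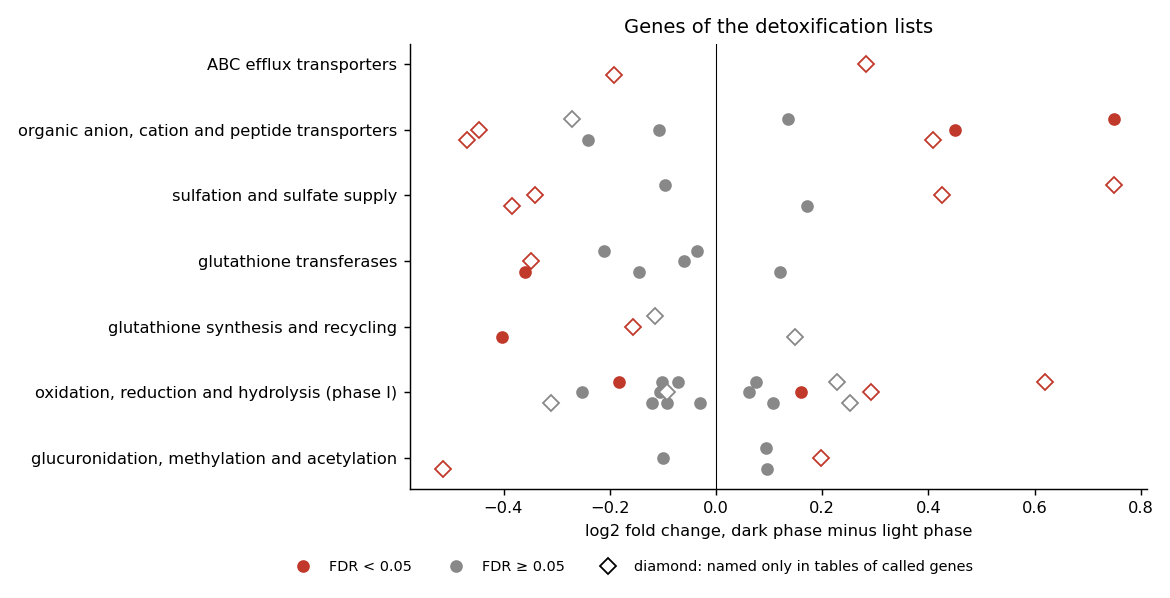
Log2 fold change, dark phase minus light phase, of the tested genes in 7 of the 8 lists (the regulators are left out for their range). Circles are genes of the table of abundant transcripts, diamonds genes named only through tables of called genes, and red marks an FDR below 0.05, so that calls lie on both sides of 0.

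Of 15 regulators, 4 had an identifier and were tested, and all 4 were called. NCOR1 was paired only through a table of called genes, and the other 3 stand in the table of abundant transcripts, where 22.9% were called. The list was chosen with earlier results of these data known, so these calls are not independent evidence. DBP and TEF, factors of the PAR bZIP family that are known to drive detoxification genes in liver and kidney, had log2 fold changes of -3.53 (FDR = 8.29e-12) and -1.76 (FDR = 3.36e-09). TEF ranged from 42.3 to 58.5 TPM (light) and from 13.6 to 15.9 TPM (dark). The corepressor NCOR1 had 0.26 (FDR = 0.00317), and NFE2L1, a factor that binds antioxidant response elements and the only other gene of the list tested, had 0.14 (FDR = 0.0357).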

How the data were processed

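Choroid plexus RNA from 12 rats was sequenced by the authors as paired-end libraries, mapped to Rnor_6.0 with STAR 2.7.9a and quantified per gene with RSEM 1.3.3, as the labels and the methods state. TPM was made by the authors with RSEM and deposited for each library, rounded to 2 decimals. FPKM from the same RSEM output was also deposited and was used here for the ratio of totals and as an alternative. These units hold no counts, so the reads counted in each library are unknown and the authors' count-based test could not be repeated. The methods of the study give only a nominal sequencing output.

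Here each library was divided by a trimmed mean of ratios (30% of ratios and 5% of levels trimmed at each end), log2(TPM + 0.5) was taken, and the genes whose mean reached 1 TPM were fitted with limma 3.58.1 in R 4.3.3 on the phase alone, with a mean-variance trend and Benjamini-Hochberg adjustment. Exact permutation tests, correlations and figures used Python 3.11.15 with numpy 2.4.6, pandas 2.3.3, scipy 1.17.1 and matplotlib 3.10.9. No pair of libraries held identical values, and p-values measure the spread between rats.

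Symbols were paired with identifiers through supplementary tables of the study that were held in part, 3700 genes in all. Those tables also hold the authors' own means and fold changes, which were not used. The members and lists were chosen with earlier results of these data known. All members were named, and from each list the 3 other tested genes with the smallest p and those without overlap between phases, plus the 2 genes most like each member. A gene that this rule selects is not reported here. Promoters came from RefSeq on GRCr8, matched by symbol for all 7 members (8 windows). The alternatives were other scalings, added values, filters, variances, covariates, library weights, FPKM, a replicate block and leaving out each library. CSF metabolites were not analysed here.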

Additional observations from a re-analysis of the deposited data

Results flagged for a closer look

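Among 18 groups of 6 values (the TPM of the 7 members, the share of TTR and the FPKM/TPM ratio of totals, for each phase), 1 value stood apart from the other libraries of its phase by Dixon's criterion, and chance alone gives about 1 in 20 groups. It was the share of TTR in light-phase replicate 2, at 25.4% of TPM, where the nearest light-phase library had 30.0%. No member had a value that stood apart in this way. Without this library EPHX1 (log2 fold change -0.17, limma FDR = 0.0748) and ABCC4 (-0.19, limma FDR = 0.0628) were no longer called, and SLC22A8, SULT1A1 and ABCC1 still were.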

How the results depend on the processing

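In 26 alternatives, SLC22A8 was called in all, SULT1A1 and ABCC1 in all but the model with the FPKM/TPM ratio, and GSTP1 and GSTM1 in none. With that ratio in the model 345 genes, 7 genes of the lists and 1 member were called, with log2 fold changes of 0.76 for SULT1A1, 0.087 for ABCC1, -0.25 for EPHX1 (limma FDR = 0.179), -0.23 for ABCC4 (FDR = 0.230) and 0.16 for GSTM1, a reversed sign (FDR = 0.494). The ratio differs between the phases, and the cause of these losses was not tested. EPHX1 was also lost with TPM as deposited (-0.17), quantile normalisation (-0.16), library weights (-0.16), no filter (-0.18), no trend (-0.18) and the summed epithelial markers as a covariate (-0.18). ABCC4 was lost with TPM as deposited (-0.18) and no filter (-0.19). With TPM as deposited and with no filter 3 members were called.

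With the replicate number as a block, 1574 genes and 3 members were called, EPHX1 (-0.18) and ABCC4 (-0.19) no longer among them. Libraries of the same number share only that number (correlation of their deviations between -0.11 and 0.05), so this is no paired analysis.

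Leaving out each library in turn gave 3 to 5 members called, 1685 to 2248 genes and 19 to 25 list genes. The log2 fold changes then ranged from -0.22 to -0.16 for EPHX1, from -0.23 to -0.16 for ABCC4, from 0.25 to 0.33 for ABCC1, from 0.65 to 0.81 for SULT1A1 and from -0.086 to 0.012 for GSTM1, which was above 0 without light-phase replicate 4.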
